A study of Mus musculus with 2 samples.

Results

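The glycolysis and hypoxia response genes described here are 34 mouse genes given as a list: the glucose transporters, the enzymes that turn glucose into lactate, the enzymes that set their pace, the cell's oxygen sensors with the factors they control, and a few well known targets of those factors. They were taken by symbol from a table of 30084 genes in 15741 single cells, and all 34 were found. The cells came from the stromal vascular fraction, the non-fat-cell part, of the epididymal fat of male C57BL/6J mice that were either deficient in Mincle, a myeloid cell receptor that senses microbial lipids and dead cells, or wild type, all on a high-fat diet, given for 15 weeks. Both genotypes were marked with antibody hashtags, mixed into a single pool and sequenced together. The sources used here do not give which of the hashtags A0309, A0310, A0311 and A0312 belongs to which genotype, nor how many animals stand behind each, so the genotypes were not compared. The members are described across classes of cells and across macrophage and fibroblast states, and the 4 hashtags serve as separate subsets of the pool in which each difference was looked for again, not as replicates of a group.

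Glycolysis splits glucose into pyruvate in the cytosol and yields energy without oxygen, and lactate dehydrogenase then turns pyruvate into lactate, which monocarboxylate transporters carry across the membrane. When oxygen is short, the prolyl hydroxylases that mark the hypoxia-inducible factors for destruction slow down, the factors build up, and they raise transcription of glucose transporters, most glycolytic enzymes and genes such as adrenomedullin and Bnip3. In macrophages the same enzymes are also raised by inflammatory signals, and in obese fat tissue macrophages gather around dying fat cells and take up their lipid. Transcripts of these genes are not a measure of flux through the pathway or of tissue oxygen.

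A level is given in CPM, a gene's counts summed over a class of cells, divided by all counts of that class and scaled to the usual common total. No gene length enters it, so levels are set side by side within a gene and never between genes. After cells named as doublets by the authors were left out and cells with under 200 detected genes or over 25% mitochondrial counts removed, 15192 cells remained, with a median of 34641.5 counts and 4529 detected genes per cell. They carried hashtag A0309 in 3255 cells, A0310 in 3475, A0311 in 3857 and A0312 in 4605, with medians of 33483 to 35489 counts. Cells were clustered without the members and named from marker genes, which gave 8372 macrophage-like, 377 monocyte-like, 166 dendritic-cell-like, 397 T- and NK-cell-like, 1101 endothelial-like, 3454 fibroblast-like and 246 mural-like cells. A further 17 mesothelial-like cells were too few for a comparison. Each class carried the markers it was named for, but the cells differed in depth, with a median of 41166.5 counts in macrophage-like, 35238.5 in fibroblast-like, 13825 in endothelial-like and 10487 in T- and NK-cell-like cells.

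A member was called higher or lower where the log2 ratio of (CPM + 1) between the classes was at least 1 in size with the same sign in the pool and in each hashtag in which both classes held 20 or more cells. This is a rule of size and not a test, because all cells share 1 pool and a hashtag is no replicate, so no p-value is given. Each count of called members stands beside the percentage of all measured genes, those at 5 CPM or more in either class, that the same rule called in that direction. A call already asks for a difference of that size within every hashtag used. For a called member, hashtag ranges that lie apart are thus largely given by the rule and are description only. Values for the 4 hashtags are listed in the order A0309, A0310, A0311 and A0312 throughout. The median tag count was 1350 per macrophage-like cell and 35 per fibroblast-like cell. Agreement over hashtags is therefore a weaker check in fibroblast-like cells.

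Every member reached 5 CPM in at least 1 of the 7 larger classes, and no class held the highest level of most of them. Macrophage-like cells had the highest level of 8 members, T- and NK-cell-like cells of 6, endothelial-like and fibroblast-like cells of 5 each, dendritic-cell-like and mural-like cells of 4 each, and monocyte-like cells of 2. In 19 of the 34 members the hashtag values of the highest class overlapped those of the next, and in 15 they lay above them. Ldha, one of the 19, was at 517 CPM in T- and NK-cell-like and 514 CPM in macrophage-like cells. The same counts over all measured genes were not made, so these are not shown to be traits of the members. The 9 enzymes of the main chain (Gpi1, Aldoa, Tpi1, Gapdh, Pgk1, Pgam1, Eno1, Pkm and Ldha) summed to 4683, 4853, 4329 and 4209.7 CPM in macrophage-like cells of the 4 hashtags, against 1845, 1872, 1810.2 and 1806 CPM in fibroblast-like cells. In the pool this sum was 4472 CPM in macrophage-like, 3379.5 in T- and NK-cell-like, 3332 in monocyte-like, 2836 in dendritic-cell-like, 2445 in mural-like, 2142 in endothelial-like and 1836 in fibroblast-like cells. The hashtag ranges of the T- and NK-cell-like cells (2992 to 3674 CPM) and the monocyte-like cells (3110.1 to 3603 CPM) overlapped. Those of the macrophage-like and fibroblast-like cells lay apart from every other class. Macrophage markers summed to 32.4% of their macrophage-like level in T- and NK-cell-like cells and 21.3% in mural-like cells. The share was 12.2% in dendritic-cell-like, 6.25% in endothelial-like and 2.67% in fibroblast-like cells. What part of these sums came from macrophage RNA was not tested.

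**Figure D1:**
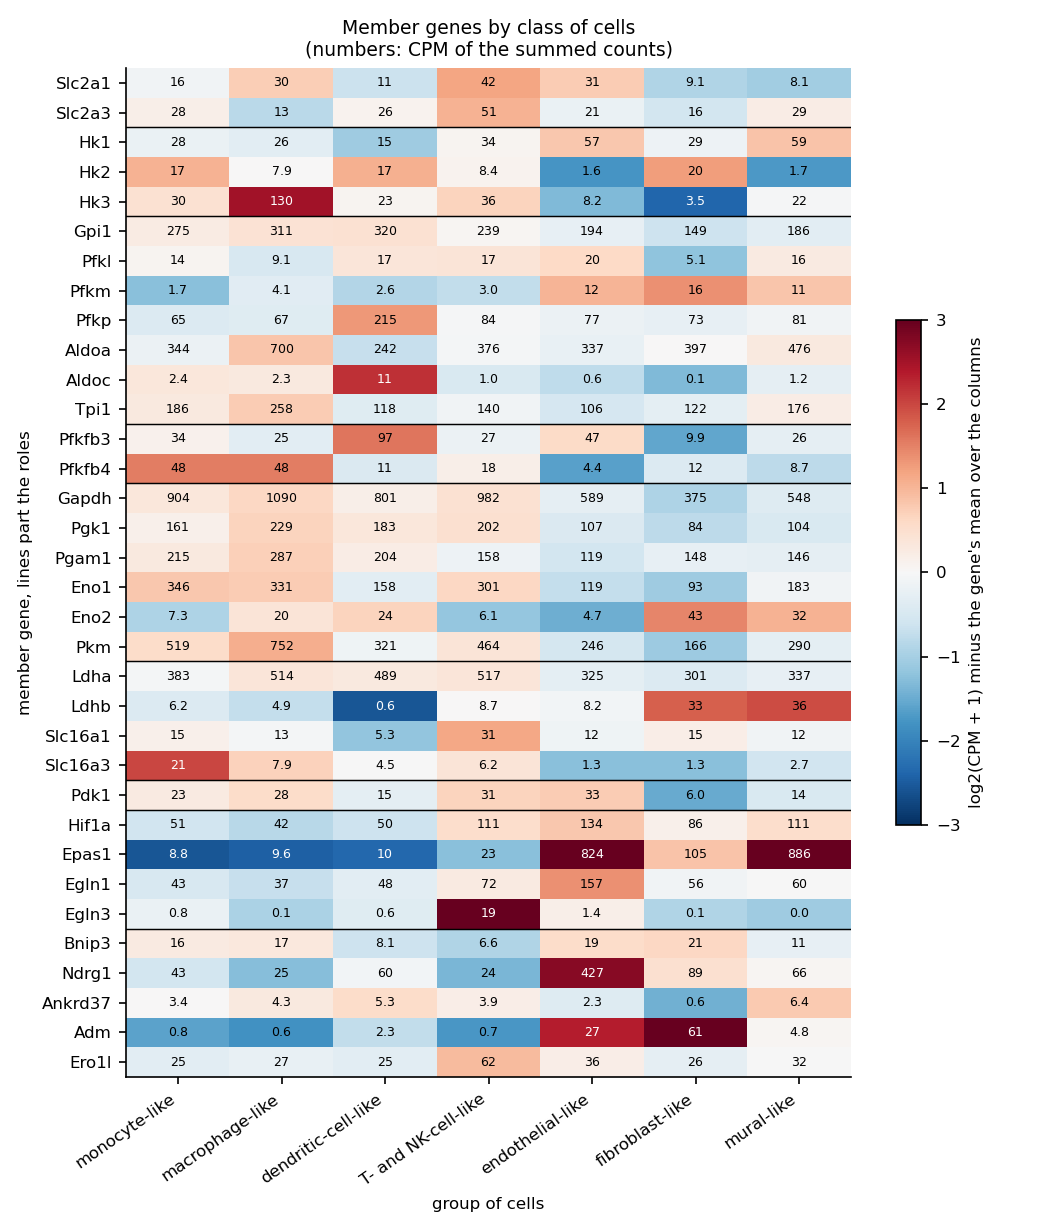
Level of each member in 7 classes of cells. Colour gives log2(CPM + 1) minus the gene's mean over the classes, with colours capped at 3 in either direction, and the printed number is the CPM of the pool. Hk3 stood at 130.0 CPM in macrophage-like cells against 3.46 CPM in fibroblast-like cells, while Epas1 was at 886 CPM in mural-like and 824 CPM in endothelial-like cells and at 9.63 CPM in macrophage-like cells.

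Macrophage-like cells carried more message for 1 of 2 glucose transporters, 1 of 3 hexokinases and 4 of 6 members of lower glycolysis than fibroblast-like cells. They carried less for the hypoxia-inducible factor Epas1 and for secreted adrenomedullin. Of the 31 members at 5 CPM or more in either class, 11 were higher and 5 lower in macrophage-like than in fibroblast-like cells, where the rule called 14.1% of 12100 measured genes higher and 19.1% lower. The median log2 ratio of these members was 0.74, beside -0.03 over all measured genes. Slc2a1, the glucose transporter GLUT1, had 28.7, 37.2, 27.8 and 28.9 CPM in macrophage-like cells, against 12.0, 8.82, 6.82 and 8.71 CPM in fibroblast-like cells. Its log2 ratio was 1.64 in the pool and 1.19 to 1.96 by hashtag, and the hashtag ranges did not overlap. The call was lost with a pseudocount of 5 CPM, at 1.33 in the pool, and with the mean over cells, at 1.35. Slc2a3, the transporter GLUT3, was not called, at 13.5 CPM in macrophage-like and 16.2 CPM in fibroblast-like cells.

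The hexokinases, which phosphorylate glucose and so hold it in the cell, were split between the classes. Hk3, the hexokinase of myeloid cells, had 123, 137, 118 and 138 CPM in macrophage-like cells, against 2.06, 3.32, 3.63 and 5.10 CPM in fibroblast-like cells. This was a 37.5-fold difference, a log2 ratio of 4.88, the largest of the members higher in macrophage-like cells. The low Hk3 level in fibroblast-like cells was 2.66% of that in macrophage-like cells, and 9 macrophage markers summed there to 2.67% of their level in macrophage-like cells (260.9 against 9764 CPM, all 9 above 5 CPM). The same share was 6.32% for Hk3 and 6.25% for the markers in endothelial-like cells, 16.6% and 21.3% in mural-like cells, 27.5% and 32.4% in T- and NK-cell-like cells, 17.98% and 12.2% in dendritic-cell-like cells, and 23.4% and 83.1% in monocyte-like cells. What part of these low Hk3 levels came from macrophage RNA was not tested. Hk2, the insulin-responsive hexokinase, went the other way in the pool, with 7.91 CPM in macrophage-like and 19.9 CPM in fibroblast-like cells, a log2 ratio of -1.23 that reached only -0.96 in hashtag A0311 and was not called. Hk1, the hexokinase of most tissues, stood at 25.6 and 28.6 CPM in the same classes and was not called.

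In lower glycolysis, from glyceraldehyde phosphate to pyruvate, macrophage-like cells were higher in 4 of the 6 members and lower in none. Pkm, pyruvate kinase, had 738, 874, 719 and 703 CPM in macrophage-like cells, against 161, 178, 157 and 168 CPM in fibroblast-like cells, a log2 ratio of 2.17. Gapdh, glyceraldehyde phosphate dehydrogenase, had 1145, 1128, 1094 and 1029.5 CPM, against 383, 371, 374 and 372 CPM in fibroblast-like cells, a log2 ratio of 1.54. The hashtag ranges of both genes lay far apart between the classes, although Gapdh is often taken as a gene of even expression. Pgk1, phosphoglycerate kinase, had 239, 269, 212 and 209.6 CPM in macrophage-like cells and 84.0, 84.4, 83.7 and 82.3 CPM in fibroblast-like cells. Eno1, the main enolase, had 373, 345, 326 and 301.9 CPM in macrophage-like cells and 95.8, 95.2, 93.2 and 86.4 CPM in fibroblast-like cells. Their log2 ratios were 1.44 and 1.82, again without overlap of the hashtag ranges. Pgam1, phosphoglycerate mutase, missed the rule with a log2 ratio of 0.95, and Eno2, the enolase known from neurons, pointed the other way, with 19.8 CPM in macrophage-like and 42.6 CPM in fibroblast-like cells, a log2 ratio of -1.07 that was -0.97 in hashtags A0310 and A0312.

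Upper glycolysis differed less. Gpi1, glucose phosphate isomerase, was just inside the rule, with 301.5, 324, 307.01 and 310.9 CPM in macrophage-like cells against 149, 155, 145 and 148 CPM in fibroblast-like cells, a log2 ratio of 1.05. Aldoa, the main aldolase, and Tpi1, triose phosphate isomerase, had log2 ratios of 0.82 and 1.07 and were not called, Tpi1 because hashtag A0312 gave 0.94. Among the phosphofructokinases, whose step commits sugar to glycolysis, Pfkm, the muscle form, was lower in macrophage-like cells (3.92, 4.34, 4.32 and 4.01 CPM) than in fibroblast-like cells (13.2, 16.9, 17.6 and 16.1 CPM), a log2 ratio of -1.72. The liver form Pfkl (log2 ratio 0.74) and the platelet form Pfkp (-0.13) were not called. Both enzymes that make and break fructose 2,6-bisphosphate, the strongest activator of phosphofructokinase, were higher. Pfkfb4 had 41.6, 53.7, 42.7 and 52.6 CPM in macrophage-like cells against 12.4, 11.2, 10.3 and 13.2 CPM in fibroblast-like cells, and Pfkfb3 had 22.5, 22.7, 26.8 and 26.3 CPM against 9.20, 9.04, 10.8 and 11.0 CPM. Their log2 ratios were 1.95 and 1.24.

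At the lactate end of the pathway the members parted. Ldhb, the lactate dehydrogenase subunit that favours pyruvate formation, was lower in macrophage-like cells, with 7.11, 4.01, 4.92 and 4.25 CPM against 26.6, 36.1, 36.0 and 31.0 CPM in fibroblast-like cells, a log2 ratio of -2.51. Ldha, the subunit that favours lactate, had 612, 501, 505 and 475 CPM in macrophage-like cells against 305.2, 300.9, 302.7 and 294 CPM in fibroblast-like cells and was not called, at a log2 ratio of 0.77. Slc16a3, the lactate exporter MCT4, was higher, with 8.85, 10.1, 6.62 and 6.81 CPM against 1.37, 1.34, 1.27 and 1.17 CPM, a log2 ratio of 1.95. Slc16a1, the transporter MCT1, was close to even, with a log2 ratio of -0.25. Pdk1, the kinase that holds pyruvate out of the mitochondrion by inhibiting pyruvate dehydrogenase, had 29.4, 31.4, 26.5 and 26.1 CPM in macrophage-like cells against 6.43, 5.29, 7.11 and 5.06 CPM in fibroblast-like cells. Its log2 ratio was 2.06, the third largest among the members higher in macrophage-like cells.

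The oxygen-sensing members and the remaining targets did not follow the enzymes. Epas1, the hypoxia-inducible factor HIF-2 alpha, was 10.9-fold lower in macrophage-like cells, with 8.55, 10.2, 9.36 and 10.1 CPM against 101, 110.4, 101 and 104 CPM in fibroblast-like cells. Adm, the vasodilator peptide adrenomedullin, had 0.534, 0.468, 0.523 and 0.734 CPM in macrophage-like cells against 62.5, 61.7, 55.0 and 64.0 CPM in fibroblast-like cells, a 104-fold difference that rests on 240 counts against 7841. Ndrg1, a stress-responsive gene of the NDRG family, was lower at 23.4, 30.3, 25.5 and 23.3 CPM against 90.9, 81.5, 86.1 and 100.1 CPM. For all 3 the hashtag ranges lay apart, with log2 ratios of -3.31, -5.29 and -1.77. Hif1a, the factor HIF-1 alpha, stood at 42.2 CPM in macrophage-like and 85.9 CPM in fibroblast-like cells, and its log2 ratio of -1.01 was -0.89 in hashtag A0309, outside the rule. Egln1, the main oxygen-sensing hydroxylase, was not called, with a log2 ratio of -0.59. Bnip3, a mitophagy receptor, had a log2 ratio of -0.31, and Ero1l, an oxidase of the endoplasmic reticulum, had one of 0.05. The other 3 members were under 5 CPM in both classes: Aldoc, the brain aldolase, Ankrd37, an ankyrin repeat protein, and Egln3, a hypoxia-inducible hydroxylase.

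**Figure D2:**
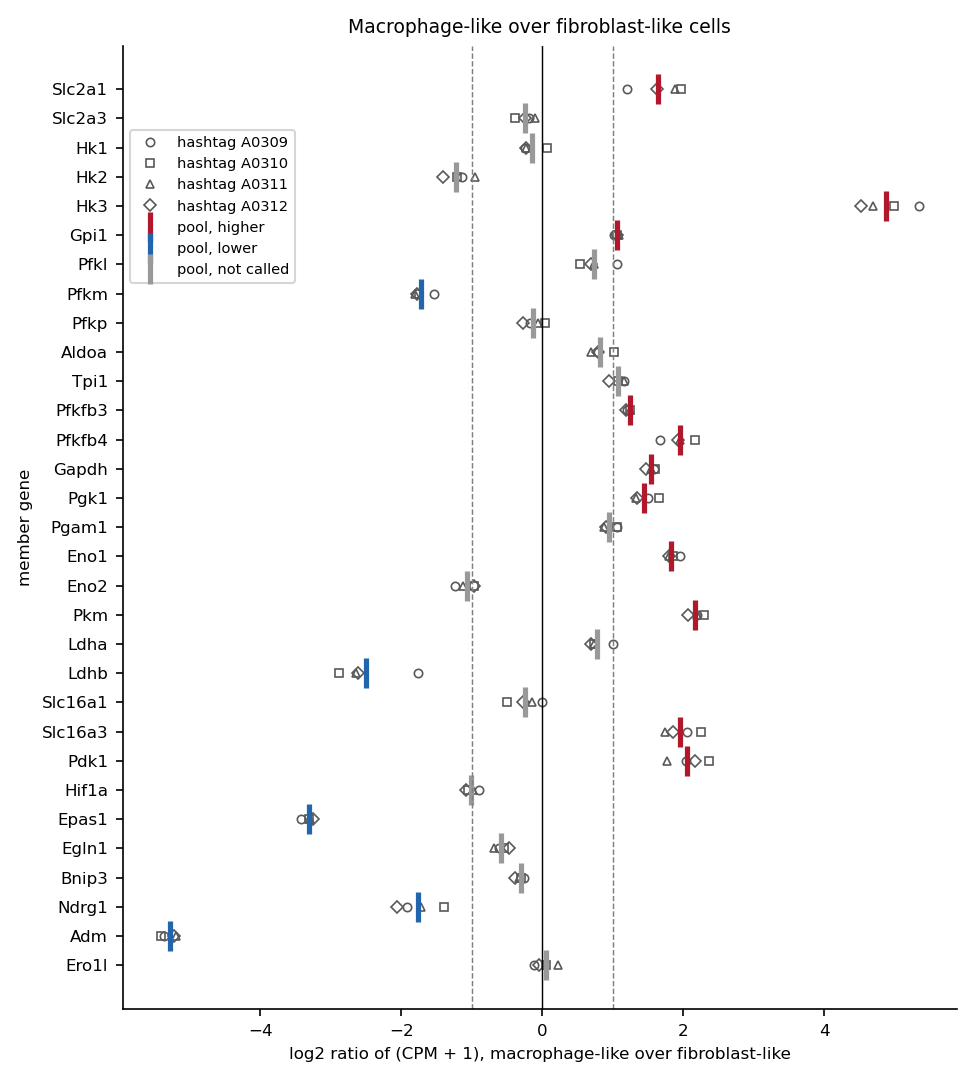
Log2 ratio of (CPM + 1), macrophage-like over fibroblast-like cells, of the 31 members at 5 CPM or more in either class. Bars give the pool, symbols the 4 hashtags, and dashed lines the size of 1 that the rule asks for; Hk3 at 4.88 and Adm at -5.29 mark the ends of the range, and Hif1a, Tpi1, Hk2 and Eno2 straddle a dashed line.

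Of the 8 listed genes of the pentose phosphate branch, which makes NADPH and ribose from glucose 6-phosphate, 4 were higher in macrophage-like cells and 1 lower. Taldo1, transaldolase, had 300.97 CPM in macrophage-like against 70.0 CPM in fibroblast-like cells, Tkt, transketolase, 326 against 95.3 CPM, and Pgd, phosphogluconate dehydrogenase, 179 against 53.5 CPM. H6pd, the branch enzyme of the endoplasmic reticulum, was lower, with a log2 ratio of -2.64. Among 22 further known hypoxia targets, 19 were measured, 3 were higher and 8 lower in macrophage-like cells. The largest were the collagen-modifying enzymes Loxl2 (9.52 against 494 CPM, log2 ratio -5.56), Plod2 (-5.48) and P4ha2 (-4.27), which cells that build matrix express, and the transferrin receptor Tfrc (3.27). None of the 11 measured genes for pyruvate entry into mitochondria was called. Of 8 further HIF regulators, 6 were measured and Cited2 was higher (1.34), and of 19 other genes of glycolysis and gluconeogenesis, 8 were measured, of which the hexose transporter Slc2a6 was higher (2.64) and Pgm1 lower (-1.25). Immediate early and heat shock genes, which tissue digestion can raise, summed to 6204 CPM in macrophage-like and 14672 CPM in fibroblast-like cells, with 8 of 12 lower and 1 higher, and the part of this difference in the values above was not tested.

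Monocyte-like cells carried most of the members at levels near those of macrophage-like cells. This class was a sub-cluster of 377 cells, led by monocyte genes, that was split from the macrophage-like clusters. Macrophage markers summed there to 83.1% of their level in macrophage-like cells. Clustered again with hashtags assigned from tag counts, the class held 79 cells. Of 29 measured members, none was higher and 2 were lower in monocyte-like than in macrophage-like cells, beside 3.34% of 11094 genes called higher and 2.34% lower, and their median log2 ratio was -0.04 against 0.14 over all genes. Hk3 had 35.1, 25.8, 34.8 and 24.4 CPM in monocyte-like cells, against 123, 137, 118 and 138 CPM in macrophage-like cells, and its log2 ratio was -2.06. Eno2 had 6.26, 8.45, 8.56 and 6.36 CPM in monocyte-like cells, against 17.99, 20.3, 20.7 and 19.7 CPM in macrophage-like cells, and its log2 ratio was -1.33. Both had ranges that did not overlap. Slc16a3 had 12.9, 22.5, 27.4 and 26.5 CPM in monocyte-like cells, above every hashtag of the macrophage-like cells (6.62 to 10.1 CPM), but its log2 ratio was only 0.49 in hashtag A0309 and it was not called. Aldoa stood at 344 CPM in monocyte-like and 699.8 CPM in macrophage-like cells, and its log2 ratio of -1.02 was -0.91 in hashtag A0312. Of the uncalled members, Pkm had a log2 ratio of -0.53, Gapdh of -0.27 and Eno1 of 0.07.

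Endothelial-like cells were higher in 2 of the 4 oxygen-sensing members, Epas1 and Egln1, and in 3 control points of glycolysis, with no call in its main chain. Of 30 measured members, 7 were higher and 3 lower in endothelial-like than in fibroblast-like cells, beside 13.3% of 12549 genes called higher and 9.79% lower. The share of members called lower was thus near that of all genes. Under median-of-ratios scaling the split of members was 5 higher and 5 lower. The median log2 ratio was 0.36 for the members and 0.30 for all measured genes, so ratios in this comparison are read against a background that is itself shifted upward. Epas1 had 874, 784, 848 and 787 CPM in endothelial-like cells, against 101, 110.4, 101 and 104 CPM in fibroblast-like cells, a 7.88-fold difference. Ndrg1 had 426, 436, 441 and 408 CPM in endothelial-like cells against 90.9, 81.5, 86.1 and 100.1 CPM, a log2 ratio of 2.25. Egln1 had 158, 139.7, 168 and 157 CPM against 58.5, 57.3, 54.2 and 52.1 CPM, a log2 ratio of 1.48. In all 3, each hashtag of the endothelial-like cells lay above each hashtag of the fibroblast-like cells. Egln1 lost its call under median-of-ratios scaling, at 1.17 in the pool, and in cells of 20000 to 60000 counts, at 0.998. Hif1a was not called, at 134 CPM in endothelial-like and 85.9 CPM in fibroblast-like cells, and Egln3 was under 5 CPM in both.

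The control points were Pfkfb3, Pfkl and Pdk1. Pfkfb3, known for its role in endothelial sprouting, had 52.4, 49.3, 41.9 and 45.8 CPM in endothelial-like cells, against 9.20, 9.04, 10.8 and 11.0 CPM in fibroblast-like cells, a log2 ratio of 2.13. Pfkl had 16.4, 17.6, 21.1 and 24.0 CPM against 4.58, 5.59, 4.97 and 5.03 CPM, a log2 ratio of 1.81. Pdk1 had 17.5, 34.9, 34.9 and 39.8 CPM in endothelial-like cells against 6.43, 5.29, 7.11 and 5.06 CPM, a log2 ratio of 2.26, with hashtag A0309 the lowest. Slc2a1 was also higher, with 35.8, 24.0, 40.2 and 21.6 CPM against 12.0, 8.82, 6.82 and 8.71 CPM, a log2 ratio of 1.65. This call was lost with a pseudocount of 5 CPM, under median-of-ratios scaling and with the mean over cells. Its pool ratio stayed between 1.34 and 1.90 under the alternatives run. On the other side, Hk2 had 0.923, 3.20, 0.524 and 2.08 CPM in endothelial-like cells against 23.8, 20.3, 16.8 and 18.1 CPM in fibroblast-like cells, a log2 ratio of -3.01. Eno2 had 2.999, 5.33, 5.59 and 4.67 CPM against 43.7, 40.7, 46.3 and 39.7 CPM, a log2 ratio of -2.94. Ldhb had 10.4, 8.00, 4.89 and 9.86 CPM against 26.6, 36.1, 36.0 and 31.0 CPM, a log2 ratio of -1.87. The hashtag values of these members did not overlap between the classes. Of 18 measured further hypoxia targets, Ddit4, a brake on growth signalling, was higher (172 against 18.3 CPM), and 7 were lower, led by Loxl2 (-3.75) and Plod2 (-2.94). The 8 fibroblast markers summed in endothelial-like cells to 0.957% of their level in fibroblast-like cells.

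Several members marked smaller classes. Epas1 was as high in mural-like cells (1168, 897, 735 and 805 CPM) as in endothelial-like cells (874, 784, 848 and 787 CPM), with overlapping ranges, and 23.1 CPM or less in T- and NK-cell-like, dendritic-cell-like, macrophage-like and monocyte-like cells. Egln3 had 32.2, 3.73, 23.8 and 16.9 CPM in T- and NK-cell-like cells and at most 1.38 CPM in the pool of each of the other 6 larger classes, while the 17 mesothelial-like cells, which entered no comparison, gave 6.51 CPM on 3 counts. Hashtag A0310 was the low value of the 4. Dendritic-cell-like cells had the highest Pfkfb3, with 66.0, 78.2, 59.7 and 183 CPM, where hashtag A0312 stood far above the others. They also had the highest Pfkp, 215 CPM against 64.8 to 84.4 CPM in the other classes. Ldhb was at 36.4 CPM in mural-like and 32.5 CPM in fibroblast-like cells and at 0.638 CPM in dendritic-cell-like cells. Slc2a3 was highest in T- and NK-cell-like cells, at 51.4 CPM, and Hk1 in mural-like (58.8 CPM) and endothelial-like cells (56.6 CPM).

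Within the macrophage-like class, 7 states were named from marker genes, and the summed main-chain enzymes spanned a wider range over them than over the classes. The sum was 7187 CPM in hashtag A0310 and 7220.2 CPM in hashtag A0312 of a state named Arg1 Dcstamp lipid-associated-like, and 7174 CPM in its pool of 191 cells. It was 5547 CPM in cells with DNA synthesis genes, 5175 CPM in Cd200 Cdkn1c lipid-associated-like cells, 4309 CPM in Pgm5 Fgf13 Hspb7-like cells, 4302 CPM in mitotic cells, 2775 CPM in cells high in MHC class II genes and 2532 CPM in resident-like cells with Lyve1 and Cd163. Hashtag ranges of the last pair overlapped (2539 to 3363 CPM and 2254 to 2789.9 CPM), as did those of the Cd200 Cdkn1c lipid-associated-like cells (4913 to 5525 CPM) and the cells with DNA synthesis genes (5268 to 5801 CPM). Fibroblast states spanned only 1612 to 2093 CPM. The depth of the macrophage states moved with the sum, with medians of 64631, 59918, 70578, 40690, 54957, 28798.5 and 20633 counts per cell in the order Arg1 Dcstamp, DNA synthesis, Cd200 Cdkn1c, Pgm5 Fgf13 Hspb7, mitotic, MHC class II and resident-like, and its part in the difference was not tested.

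**Figure D3:**
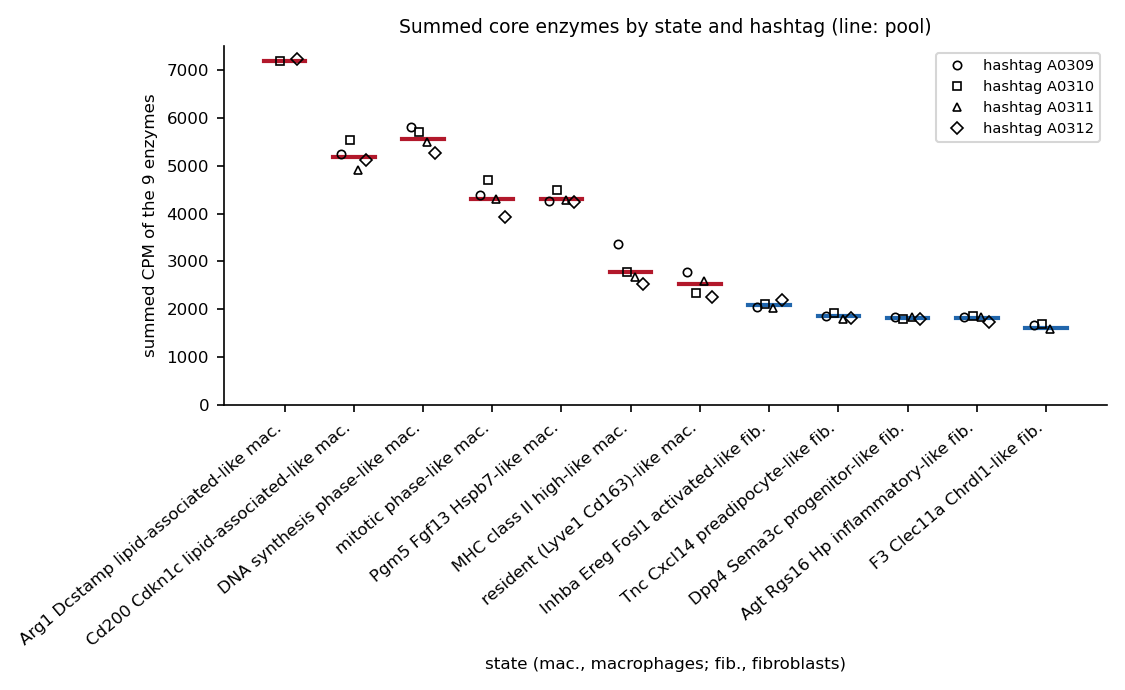
Summed CPM of the 9 main-chain enzymes in each macrophage state (red lines) and fibroblast state (blue lines), with symbols for the hashtags that had at least 20 cells. Macrophage states ran from 7174 CPM in the Arg1 Dcstamp lipid-associated-like cells to 2532 CPM in the resident-like cells, and fibroblast states from 2093 to 1612 CPM.

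The state at the top of this range was unevenly drawn from the pool. Hashtag A0310 gave 67.0% of its cells, and it made up 7.21% of the macrophage-like cells of A0310, against 0.851%, 0.491% and 1.38% of those of A0309, A0311 and A0312, so only A0310 and A0312 had the 20 cells asked for. Its extent also hung on the hashtag rule: clustered again after hashtags were assigned from tag counts, which kept 94.3% of the macrophage-like cells, the state of this name held 912 cells in place of 191. It was named from Dcstamp (69.5 CPM against 28.4 CPM in all macrophage-like cells), Gpnmb (4159 against 3359 CPM), Mmp12 (8498 against 2248 CPM), Spp1 and Cd9, while Arg1 itself was at 21.01 CPM against 19.4 CPM. The same markers were also high in the Cd200 Cdkn1c lipid-associated-like cells. Gpnmb (7908 CPM) and Spp1 (258 against 245 CPM) were higher there, and Dcstamp (51.1 CPM), Mmp12 (6296 CPM) and Cd9 (963 against 1062 CPM) lower. Arg1 was at 21.03 CPM in those cells. The state thus carries the name of its marker list, not of its leading genes. Those were, in order, Serpinb9b, Uchl1, Gclm, Cd5l, Akr1b8, Srxn1, Clec4d, Prdx1, Procr and Ptgr1. Arg1 and Dcstamp were among the leading genes of a cluster of 2016 macrophage-like cells in the first clustering of all cells. Its overlap with this state was not counted. Gclm, a subunit of the enzyme that starts glutathione synthesis, was at 620.2 CPM in this state. It was at 67.9 CPM in all macrophage-like cells and at 48.4 CPM in the Cd200 Cdkn1c lipid-associated-like cells.

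Set against all other macrophage-like cells, few members of any state passed the rule. In the resident-like cells none was higher and 5 were lower, beside 2.71% of 10971 genes called higher and 2.4% lower. Slc2a1 fell to 7.39, 11.9, 4.32 and 2.21 CPM in resident-like cells, against 30.6 CPM in the pool of the other macrophage-like cells, a log2 ratio of -2.17. Eno2 had a log2 ratio of -2.48, on 10 counts, Pgk1 of -1.32, Pkm of -1.27 and Hk3 of -1.11. In cells of 20000 to 60000 counts only, Pkm (-0.79) and Hk3 (-0.52) no longer passed. In the cells high in MHC class II genes, Slc2a1 alone was lower, at 10.5, 8.39, 8.07 and 9.40 CPM against 35.6 CPM in the pool of the others, a log2 ratio of -1.86, and none was higher, beside 2.4% of 10725 genes called higher and 2.7% lower. In the Arg1 Dcstamp lipid-associated-like cells, Slc16a3 (log2 ratio 1.27) and Pgk1 (1.18) were higher and none lower, beside 1.28% of 10346 genes higher and 4.0% lower, and Aldoa (1.13) and Pkm (1.04) did not reach the size in every hashtag.

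Over all 7 states the calls were 2 higher and 6 lower, and under median-of-ratios scaling 6 higher and 3 lower. No member was called in the other 4 states. The rule called 0.502% of genes higher and 3.93% lower in the Cd200 Cdkn1c lipid-associated-like cells, 0.107% higher and 1.88% lower in the Pgm5 Fgf13 Hspb7-like cells, 3.3% higher and 0.715% lower in the cells with DNA synthesis genes, and 2.51% higher and 0.219% lower in the mitotic cells. Levels in these states were not all alike: Hk3 was at 216 CPM in the Cd200 Cdkn1c lipid-associated-like cells, Eno2 at 29.8 CPM in the Pgm5 Fgf13 Hspb7-like cells, and Ldha at 718 CPM in the cells with DNA synthesis genes, each the highest of the 7 states.

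**Figure D4:**
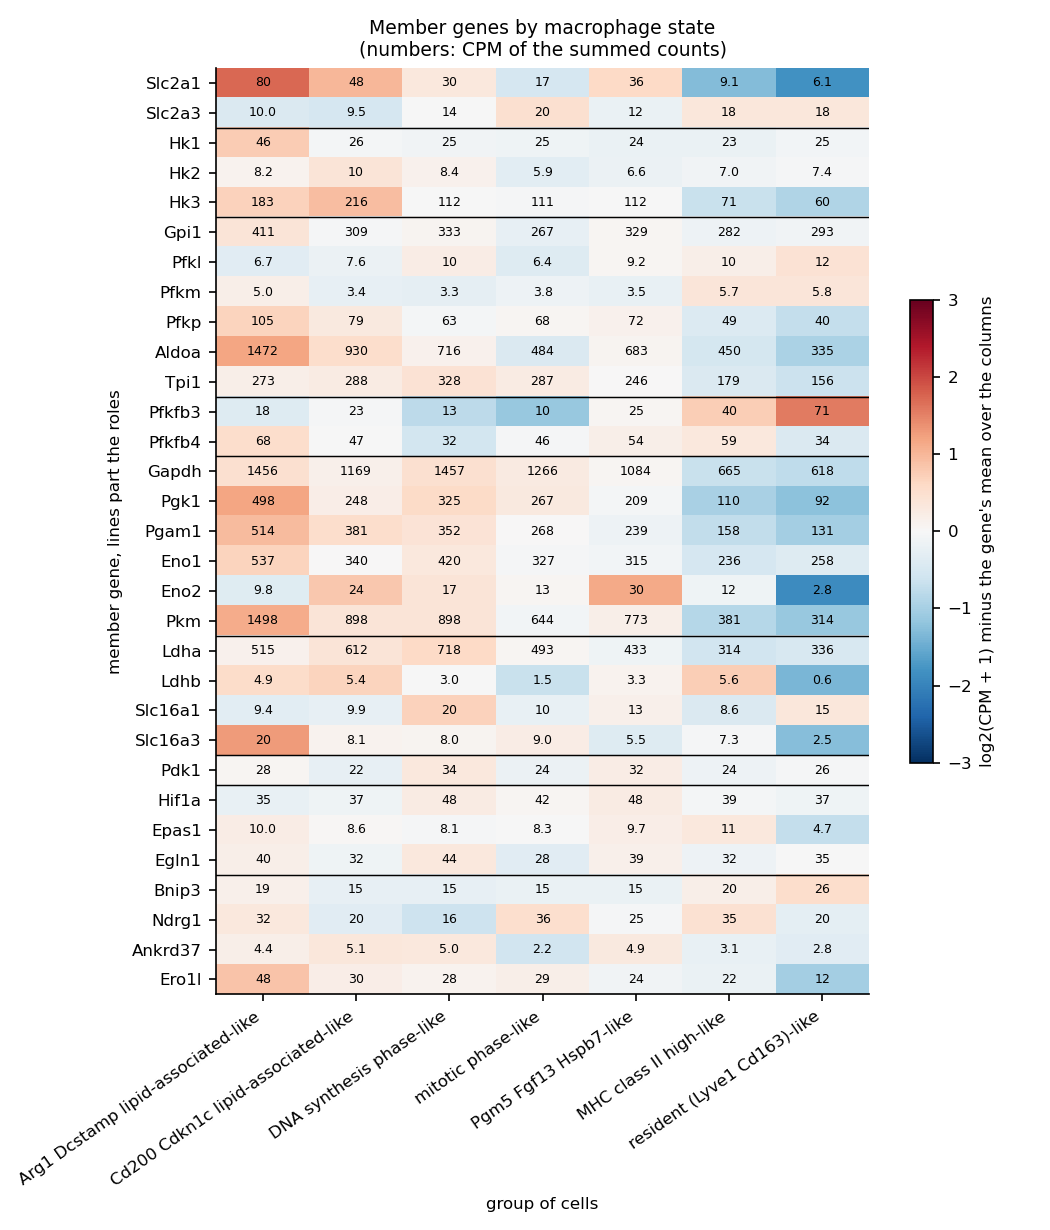
Level of each member in 7 macrophage states, with 31 members shown. Colour gives log2(CPM + 1) minus the gene's mean over the states, and the printed number is the CPM of the pool; Slc2a1 ran from 80.3 CPM in Arg1 Dcstamp lipid-associated-like cells to 6.05 CPM in resident-like cells, while Pfkfb3 stood at 17.7 CPM in the first of these and 71.0 CPM in the resident-like cells.

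Set directly against the resident-like cells, the Arg1 Dcstamp lipid-associated-like cells were higher in every step of lower glycolysis, in the glucose transporter Slc2a1 and in the lactate exporter Slc16a3. Of 29 measured members, 12 were higher and 1 lower, beside 4.54% of 10871 genes called higher and 8.08% lower, and the median log2 ratio of the members was 0.85 beside -0.12 over all genes. Slc2a1 had 90.9 CPM in hashtag A0310 and 55.0 CPM in A0312 of the Arg1 Dcstamp lipid-associated-like cells, against 7.39, 11.9, 4.32 and 2.21 CPM in the resident-like cells. Slc16a3 had 21.1 and 15.5 CPM, against 6.57, 0, 0 and 1.11 CPM in resident-like cells, where it rests on 9 counts. Neither gene's hashtag values overlapped, and the log2 ratios were 3.53 and 2.56. The other members of these roles were not called and pointed the other way in the pool, Slc2a3 at 9.99 CPM against 17.9 CPM and Slc16a1 at 9.39 CPM against 15.4 CPM. Pool ratios in this comparison can lie outside those of A0310 and A0312, since the pool also holds resident-like cells of the other hashtags.

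Pgk1 had 509.6 and 487 CPM in the Arg1 Dcstamp lipid-associated-like cells, against 87.8, 76.5, 96.1 and 102 CPM in resident-like cells. Pkm had 1506 and 1479 CPM, against 337, 224, 312.02 and 343 CPM. Aldoa had 1449.8 and 1538 CPM, against 304.5, 388, 340.1 and 335 CPM. These 3 enzymes were 4 or more times higher, with log2 ratios of 2.43, 2.25 and 2.13. Pgam1 followed with 528 and 469.9 CPM against 138, 114, 140.4 and 123 CPM, a log2 ratio of 1.97. Gapdh (1439 and 1562 CPM against 738, 569.7, 588 and 518 CPM) and Eno1 (529 and 574 CPM against 313.5, 206, 283 and 193 CPM) differed less, with log2 ratios of 1.23 and 1.05. Eno1 was lost without hashtag A0312, at 0.91. The remaining higher members were Ero1l (1.86), Hk3 (1.60), Eno2 (1.53) and Pfkp (1.38).

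Not every enzyme of the chain took part. Ldha had a log2 ratio of 0.61, Gpi1 of 0.49 and Tpi1 of 0.81, all outside the rule, and Pfkfb4 had one of 0.97. Pfkfb3 was lower, with 19.5 and 12.0 CPM in the Arg1 Dcstamp lipid-associated-like cells, against 62.4, 98.6, 54.0 and 81.9 CPM in resident-like cells, a log2 ratio of -1.95 without overlap. None of the measured oxygen-sensing members was called. Among the neighbouring pathways, 3 of 8 pentose phosphate genes were higher: Pgd (716 against 85.3 CPM, log2 ratio 3.05), Taldo1 (2.80) and Tkt (1.74). Of 16 measured further hypoxia targets, Gbe1, the glycogen branching enzyme (2.86), and Vegfa (2.84) were higher, and none was lower. Immediate early and heat shock genes summed to 3747 CPM in the Arg1 Dcstamp lipid-associated-like cells and 13073 CPM in the resident-like cells, with 9 of 12 lower and 1 higher, and the part of this and of the depth gap (64631 against 20633 counts per cell) was not tested. At Leiden resolution 2.0, a finer clustering, 7 members were higher in place of 12, and against all other macrophage-like cells the state lost both its calls, with log2 ratios of 0.29 for Pgk1 and 0.34 for Slc16a3. Under the tag-count rule the state lost both these calls too, at 0.81 and 0.40, and over resident-like cells it lost those of Eno1 (0.90), Pfkp (1.10) and Slc16a3 (1.84 in the pool).

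Hypoxia-inducible factors bind DNA at a short element with the core letters ACGTG or GCGTG, of which only ACGTG was searched here. The 250 bases before the RefSeq start of each member were read from RefSeq windows of the mouse build GRCm38.p6. That start is not always the outer edge of the gene: set against the gene spans of the GENCODE annotation of the same build, 10 windows lay outside the span, 7 partly and 14 wholly inside it. A window was found for 31 of the 34 members, Ero1l under its newer symbol Ero1a, and not for Slc2a3, Epas1 and Ndrg1. The letters ACGTG were searched on both strands, with each strand's matches counted even where they overlap, as in CACGTG. They occurred in 16 of the 31 member windows (51.6%) and in 16.6% of all 32851 windows of that length. Of the 12 members higher in Arg1 Dcstamp lipid-associated-like than in resident-like macrophages, the windows of the glucose transporter, the lactate exporter and the enzymes with the largest ratios are shown, together with that of Gapdh. Of the 12 windows 8 hold a match and 4 (Gapdh, Eno1, Eno2 and Pfkp) hold none. Matches are in capitals, written 5′ to 3′ on the strand of the gene, and a match on the other strand reads CACGT.
Slc2a1, chr4:119108495-119108744, plus strand: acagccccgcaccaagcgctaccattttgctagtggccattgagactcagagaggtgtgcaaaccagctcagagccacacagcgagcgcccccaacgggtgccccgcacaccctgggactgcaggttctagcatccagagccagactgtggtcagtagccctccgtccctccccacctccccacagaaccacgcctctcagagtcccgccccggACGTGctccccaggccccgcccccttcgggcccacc
Slc16a3, chr11:120948817-120949066, plus strand: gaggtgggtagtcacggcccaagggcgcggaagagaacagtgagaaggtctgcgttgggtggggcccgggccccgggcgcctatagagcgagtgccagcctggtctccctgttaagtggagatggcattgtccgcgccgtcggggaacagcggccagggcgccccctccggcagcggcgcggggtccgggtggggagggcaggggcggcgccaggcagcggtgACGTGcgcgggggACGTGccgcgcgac
Pgk1, chrX:106186850-106187099, plus strand: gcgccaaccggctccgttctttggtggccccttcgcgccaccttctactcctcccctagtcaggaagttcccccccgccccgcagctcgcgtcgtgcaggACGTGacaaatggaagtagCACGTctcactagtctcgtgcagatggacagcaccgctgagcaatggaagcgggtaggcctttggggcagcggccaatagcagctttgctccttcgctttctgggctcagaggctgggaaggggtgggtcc
Pkm, chr9:59656977-59657226, plus strand: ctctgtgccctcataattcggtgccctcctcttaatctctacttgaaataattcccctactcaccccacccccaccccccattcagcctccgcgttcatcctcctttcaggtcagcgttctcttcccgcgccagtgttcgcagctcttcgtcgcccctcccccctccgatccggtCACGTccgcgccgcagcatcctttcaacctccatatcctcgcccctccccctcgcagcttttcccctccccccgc
Aldoa, chr7:126799179-126799428, minus strand: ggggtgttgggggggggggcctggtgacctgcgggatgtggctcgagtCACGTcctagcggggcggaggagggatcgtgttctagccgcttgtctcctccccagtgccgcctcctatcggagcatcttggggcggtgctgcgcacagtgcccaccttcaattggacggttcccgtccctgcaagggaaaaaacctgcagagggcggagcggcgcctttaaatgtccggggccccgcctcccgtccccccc
Pgam1, chr19:41911621-41911870, plus strand: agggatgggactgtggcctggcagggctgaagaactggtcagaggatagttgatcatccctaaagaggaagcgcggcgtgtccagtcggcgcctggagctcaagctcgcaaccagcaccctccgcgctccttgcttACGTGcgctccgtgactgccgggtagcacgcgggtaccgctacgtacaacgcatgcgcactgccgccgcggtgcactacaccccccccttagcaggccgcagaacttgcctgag
Gapdh, chr6:125165774-125166023, minus strand: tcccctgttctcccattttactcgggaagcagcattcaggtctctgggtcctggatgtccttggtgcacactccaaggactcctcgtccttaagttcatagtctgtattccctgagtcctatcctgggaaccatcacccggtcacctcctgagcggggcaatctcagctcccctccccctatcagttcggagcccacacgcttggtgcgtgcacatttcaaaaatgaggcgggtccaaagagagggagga
Pgk1 and Slc16a3 each held 2 matches, and Slc2a1, Pkm, Aldoa and Pgam1 held 1. The windows of Pgk1 and Pgam1 lay outside the gene span, that of Slc2a1 had 34 bases inside it, and those of Slc16a3, Pkm, Aldoa and Gapdh lay wholly inside. A match describes these letters in this window, and says nothing of whether a factor was bound there. A window without a match can still hold the letters GCGTG, as that of Gapdh does.

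Across fibroblast states none of the main-chain enzymes was called, and the calls were of Hk2, Epas1, Ndrg1 and Adm and, in 1 small state, of Slc2a1, Pfkl and Pdk1. Of the main chain, Gapdh ranged from 262 to 428 CPM and Ldha from 228 to 377 CPM over the 5 states. Among the 1319 Tnc Cxcl14 preadipocyte-like and the 910 Dpp4 Sema3c progenitor-like cells, 29 members were measured, 1 was higher and 2 lower in the preadipocyte-like cells, beside 2.64% of 11405 genes called higher and 2.38% lower. Epas1 had 141, 146, 147 and 142 CPM in Tnc Cxcl14 preadipocyte-like cells, against 44.0, 37.5, 41.7 and 54.6 CPM in Dpp4 Sema3c progenitor-like cells, a log2 ratio of 1.68. Ndrg1 had 50.5, 52.9, 47.2 and 59.8 CPM, against 172, 171, 160.2 and 190.4 CPM, a log2 ratio of -1.71. Hk2 had 7.64, 5.68, 7.26 and 3.87 CPM, against 30.4, 31.3, 17.5 and 21.9 CPM, a log2 ratio of -1.88. None of these ranges overlapped, and the preadipocyte-like cells were the high ones for Epas1 and the low ones for Ndrg1 and Hk2. The 9 main-chain enzymes gave no call, with sums of 1856 and 1827 CPM. Of the neighbouring lists, the collagen lysyl hydroxylase Plod1 (1.501), the cytokine Mif (1.33) and H6pd (1.40) were higher and Arnt2, a partner of the hypoxia-inducible factors (-2.05), was lower.

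Set against all other fibroblast-like cells, the states repeated this pattern with few additions. In the Dpp4 Sema3c progenitor-like cells Ndrg1 was higher (log2 ratio 1.60) and Epas1 lower (-1.51), beside 2.12% of 11424 genes higher and 2.65% lower. In the Tnc Cxcl14 preadipocyte-like cells Hk2 was lower (-2.11) and none was higher, beside 0.342% of 11397 genes higher and 1.43% lower. In the 814 Agt Rgs16 Hp inflammatory-like cells no member was called, beside 0.562% of 11393 genes higher and 0.913% lower. These cells had the highest Adm in the pool, 75.1 CPM, but by hashtag it was spread over 104, 61.6, 44.8 and 93.4 CPM.

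The 158 Inhba Ereg Fosl1 activated-like cells had the highest Hk2 and the lowest Adm. Hk2 had 56.0, 50.8, 47.8 and 51.7 CPM in these cells, above every hashtag of the other 4 states, and its log2 ratio to the other fibroblast-like cells was 1.48. Adm had 17.2, 4.28, 17.5 and 13.6 CPM, with a log2 ratio of -2.16, and hashtag A0310 was the lowest. The rule called 0.737% of 11393 genes higher and 1.18% lower. Slc2a1 was also highest in this state, at 23.7 CPM against 12.6 CPM in the Agt Rgs16 Hp inflammatory-like and 4.01 CPM in the Tnc Cxcl14 preadipocyte-like cells, without a call.

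In the 76 F3 Clec11a Chrdl1-like cells 4 members were lower and none higher, beside 1.79% of 11647 genes higher and 2.46% lower, with 3 hashtags used. Slc2a1 had no counts in these cells, which makes it at least 8.39-fold lower than in the other fibroblast-like cells when 3 counts over the group are taken as the floor. Hk2 was low at 3.70 CPM, on 10 counts. Pfkl (2 counts) and Pdk1 (4 counts) were at 0.740 and 1.48 CPM. With so few cells and counts these 4 differences carry wide counting errors. When hashtags were assigned from tag counts, which kept 18.1% of the fibroblast-like cells, the calls over all fibroblast states were 1 higher and none lower, in place of 2 and 7.

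**Figure D5:**
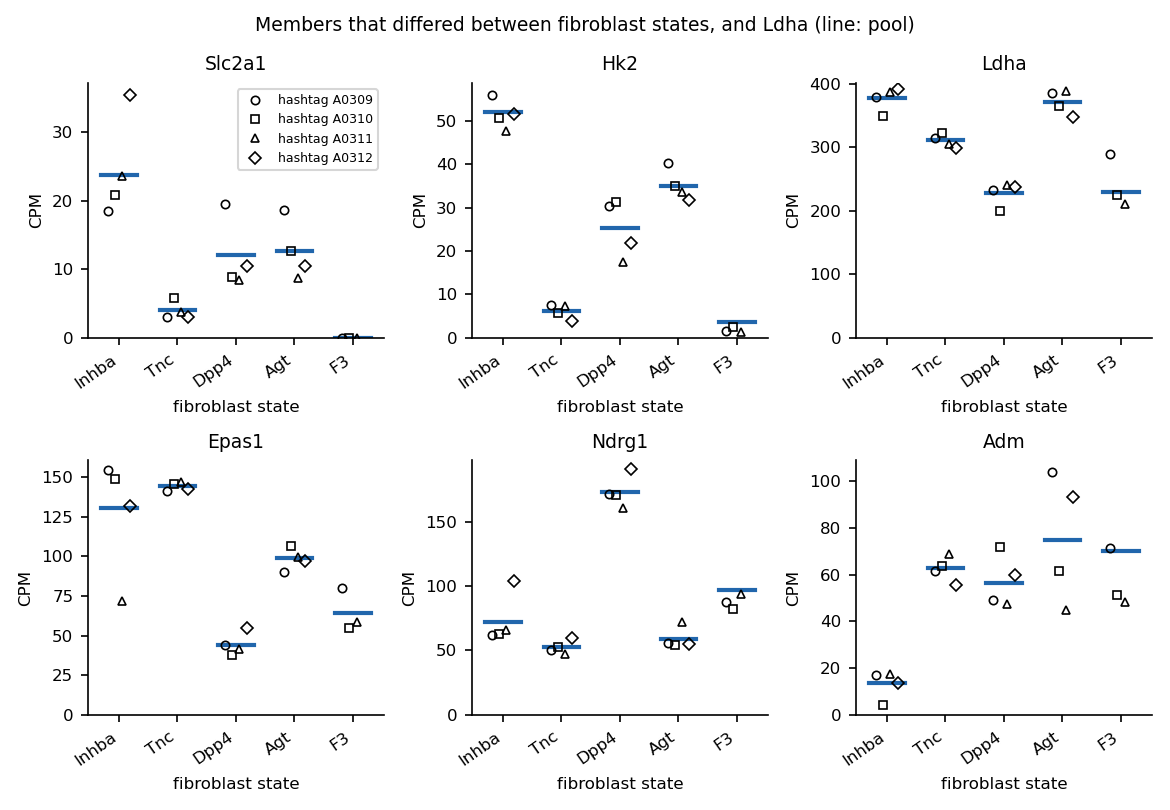
Levels in CPM of 6 members in the 5 fibroblast states, each named by its first marker gene. Lines give the pool and symbols the hashtags with at least 20 cells; Hk2 was at 52.1 CPM in the Inhba state and 6.18 CPM in the Tnc state, Ndrg1 at 52.3 CPM in the Tnc state and 173 CPM in the Dpp4 state, while Ldha stayed between 228 and 377 CPM.

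Of the 9 main-chain enzymes, all but Gpi1 varied closely with the sum of the others over the 16 macrophage sub-clusters. This is a description without a p, since the sub-clusters share a pool, and each enzyme was left out of the sum it was set against. Pearson's r was 0.96 for Pgam1 and Pgk1, 0.88 for Tpi1, 0.87 for Aldoa, 0.86 for Pkm and Ldha, and 0.83 for Gapdh and Eno1, but 0.48 for Gpi1. Members outside the main chain were set against the sum of all 9 enzymes. Among them, Ero1l (0.72), Slc2a1 (0.66) and Hk3 (0.62) followed it most closely, while Pfkfb3 (-0.73) and Slc2a3 (-0.65) ran against it. The median count per cell had an r of 0.50 with the same sum. Over the 9 fibroblast sub-clusters the median count per cell had an r of 0.87 and Aldoa, the closest enzyme, one of 0.93. The others were looser there, with 0.82 for Pgam1 and Pgk1, 0.81 for Gapdh, 0.64 for Eno1, 0.63 for Tpi1, 0.56 for Gpi1, 0.28 for Pkm and 0.24 for Ldha. An unnamed fibroblast sub-cluster of 177 cells lay apart, with a sum of 1126 CPM against 1543 to 2093 CPM in the rest. It was shallow (median 11697 counts), was led by Malat1, and had the lowest Gpi1, Aldoa, Tpi1, Gapdh, Pgk1 and Pgam1. Another sub-cluster held only 24 cells. The r values without these sub-clusters were not computed.

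The members differed little between the subsets of the pool. The same spread over all genes was not computed, so this is not shown to be a trait of the members. The hashtags are not tied to a genotype here, so it says nothing of a genotype effect. In macrophage-like cells 28 members were at 5 CPM or more, and the highest hashtag exceeded the lowest by over 1.5 times in 2 of them and by over 2 times in none, with a median of 1.22 times. In fibroblast-like cells the same counts were 1 and none of 29, with a median of 1.16 times. Their hashtags rested on a median of 35 tag counts per cell, and wrong assignments would make the subsets look more alike. How many cells carried a wrong hashtag was not tested. Reads of near-identical copies may have been split from some members: the listed copy Eno1b held counts equal to 37.5% of those of Eno1, 4 copies of Gapdh held 5.90%, and Pgk1-rs7 1.89% of Pgk1. Adding the copies back kept all 8 calls of these genes.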

How the data were processed

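Single cells were captured with the BD Rhapsody microwell system. The submitters' processing notes name the mouse build GRCm38, R 4.1.2 and 3.6.3, Bowtie2 2.4.2 and cutadapt 3.4. The values are counts per gene and cell as deposited by the authors, who also named each cell by hashtag or as a doublet. The sources used here leave unsaid if counts stand for reads or for molecules. In 68 genes, none of them a member, low values are 0. Cells with at least 200 genes and at most 25% mitochondrial counts were kept, 2000 variable genes without the members and pathway genes gave 30 principal components, and Leiden clusters (20 neighbours, resolution 1.0, seed 1) were named from marker lists. Counts were summed per class and hashtag. The members and lists were chosen with earlier results of these data known. Called members with the largest ratios were named, up to 10 in a comparison, with the most abundant uncalled ones, and all 34 were accounted for by role. Only the rule of size was run on simulated counts, with planted differences and counting error alone. Clustering, naming and hashtag assignment were not simulated. Alternatives covered scaling, pseudocount, filters, clustering, doublets, hashtag rule and leaving out each hashtag. No test, interval or genotype comparison was possible across animals, and intervals given cover counting error only. Columns of no sample numbered 0 and were not used. Python 3.11.15, numpy 2.4.6, scipy 1.17.1, pandas 2.3.3, scikit-learn 1.9.0, leidenalg 0.10.2, igraph 0.11.9 and matplotlib 3.10.9 were used. The values of 1 gene on the list of further hypoxia targets are not reported here.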

Additional observations from a re-analysis of the deposited data

Results flagged for a closer look

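Antibody tags that no cell name carries gave a signal in the tag data: 11 hashtags made up 0.0143% of the tag counts of the kept cells, 3825 counts in all. There is no control sample to set this against.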

How the results depend on the processing

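The 61 calls of a member in a comparison were recomputed under the alternatives, which gave 895 values: 823 stayed called in the same direction, 72 lost the call and 0 changed sign, and 29 calls held under every alternative run. Runs without 1 hashtag are among these values and kept 61, 61, 61 and 60 calls. They drop a condition that each call had already met, so only the pool ratio could undo a call. These runs are therefore a weak check. Macrophage-like over fibroblast-like cells gave 7 members higher in place of 11 with a pseudocount of 5 CPM, and 3 lower in place of 5 when hashtags were assigned from tag counts. Monocyte-like over macrophage-like cells gave 1 lower in place of 2 with that pseudocount, with the mean over cells, at Leiden resolution 0.5 and with cells of 20000 to 60000 counts only, and 1, 3 and 2 higher in place of 0 at resolutions 0.5 and 2.0 and under the tag-count rule. Endothelial-like over fibroblast-like cells gave 7 higher and 3 lower members, and 5 and 5 under median-of-ratios scaling. Over the macrophage states, 2 calls higher and 6 lower became 6 and 3 under that scaling. The higher ones were 1 with the larger pseudocount, 6 with the mean over cells, 5 with cells of 20000 to 60000 counts, 4 with unnamed clusters left out, and 0 at resolution 2.0 and under the tag-count rule, and the lower ones were 10 at resolution 0.5. Over the fibroblast states, 2 higher and 7 lower became 1 and 0 under the tag-count rule, which kept 18.1% of fibroblast-like and 94.3% of macrophage-like cells. Tnc Cxcl14 preadipocyte-like over Dpp4 Sema3c progenitor-like cells gave 1 lower in place of 2 with the larger pseudocount, at resolutions 0.5 and 2.0 and under the tag-count rule, and 0 higher in place of 1 under the last. Arg1 Dcstamp lipid-associated-like over resident-like cells gave 7 higher in place of 12 at resolution 2.0, and no value at resolution 0.5 or in cells of 20000 to 60000 counts.

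Leaving out each hashtag gave 0 to 1 higher members for monocyte-like cells, 8 to 11 lower calls over the macrophage states, 2 to 4 higher over the fibroblast states and 1 to 2 higher for Tnc Cxcl14 preadipocyte-like cells, with the top of each range without A0309. It gave 2 to 5 higher calls over the macrophage states and 1 to 2 lower for Arg1 Dcstamp lipid-associated-like cells, with the top of each range without A0310. The log2 ratio of Eno1 in Arg1 Dcstamp lipid-associated-like over resident-like cells was 0.91 without A0312, the 1 call lost this way, and 0.60 at resolution 2.0. The alternatives on count range, copies and unnamed clusters were chosen after seeing the data. The cause of these changes was not tested. No paired analysis was possible because the cells form 1 pool and the hashtags are not tied to groups. Hk3 in resident-like cells lost its call under several settings, with a log2 ratio of -0.52 in cells of 20000 to 60000 counts, and Pkm there had -0.79. Few cells limit the resident-like (154) and F3 Clec11a Chrdl1-like (76) states, where several members rest on 10 counts or fewer.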

Other observations

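Small groups of cells held high levels of a few members. In the 17 mesothelial-like cells, which entered no comparison, Slc16a1 was at 417 CPM (192 counts, exact Poisson 95% interval 359.7 to 479.8), Ldhb at 187 CPM (86 counts, 149 to 230.4) and Aldoc at 39.1 CPM (18 counts). The highest pool values of the 7 larger classes were 30.9 CPM for Slc16a1 in T- and NK-cell-like cells, 36.4 CPM for Ldhb in mural-like cells and 11.5 CPM for Aldoc in dendritic-cell-like cells. In an unnamed sub-cluster of 27 cells inside the macrophage-like class, led by Ace, Itgal, Pglyrp1, Cd300e, Adgre4 and Treml4 and with a median of 9945 counts per cell, Slc16a3 was at 129 CPM (37 counts, 91.0 to 178) and Ankrd37 at 76.9 CPM (22 counts, 48.2 to 116). In all macrophage-like cells these were at 7.88 and 4.27 CPM.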
